A study of Macaca mulatta with 8 samples.

Results

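Cytosolic ribosomal protein genes encode the protein part of the ribosomes that translate the cell's messenger RNAs. They were taken as the genes whose only symbol in the array's platform annotation is RPL or RPS followed directly by a number, leaving out the RPS6K kinases. This gave 39 of the 14132 genes measured, through 67 probe sets. Of the 39, 20 belong to the large (60S) subunit, 12 to the small (40S) subunit and 6 are paralogs or like genes (RPL3L, RPL7L1, RPL22L1, RPL26L1, RPL36AL and RPS27L). The remaining 1, RPS19BP1, encodes a protein that binds RPS19 and activates the deacetylase SIRT1, so its symbol meets the rule although it is no ribosomal protein. Of the 73 core ribosomal proteins listed for the 2 subunits, 32 were measured in this way. Another 27 probe sets that carry a ribosomal protein symbol beside other symbols were not used here.

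The samples are granulosa cells of rhesus macaques (Macaca mulatta), the somatic cells that line the ovarian follicle. The VVM-GC group comes from follicles that received follicle-stimulating hormone (FSH) and then human chorionic gonadotropin (hCG), which stands in for the ovulatory surge of luteinizing hormone. The PM-GC group received FSH alone, so ovarian stimulation with FSH is common to both groups. Each group has 4 RNA preparations, each on its own Affymetrix rhesus array, and the comparison asks how mural granulosa cells differ once the ovulatory stimulus has been given. No label says which animals the preparations came from, their ages, how long after hCG the cells were collected, or the scan batches, so p-values measure the spread between these arrays, which may be partly technical. The sample labels name granulosa cells of cumulus-oocyte complexes whereas the design text names mural granulosa cells.

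Ribosomal proteins are made in large and roughly matched amounts, since each ribosome takes up 1 copy of nearly all of them. Their messenger RNAs begin with a terminal oligopyrimidine (TOP) tract through which mTOR signalling controls their translation, so that much of their regulation takes place after transcription. Ribosome assembly begins in the nucleolus, where RNA polymerase I makes the precursor of ribosomal RNA and biogenesis factors cut, modify and fold it. Granulosa cells divide and grow under FSH and leave the cell cycle as they luteinize after the ovulatory surge.

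Values are log2 of the deposited linear intensities, and differences are VVM-GC minus PM-GC. Array medians lay between 5.44 and 5.54 and array maxima between 14.49 and 14.63. Pearson correlations over probe sets were 0.974 to 0.984 within VVM-GC, 0.984 to 0.988 within PM-GC and 0.935 to 0.957 between the groups. Of 12 listed granulosa markers 8 were measured, among them the inhibin subunit INHA at 13.50 ± 0.19 in VVM-GC and 14.07 ± 0.08 in PM-GC (SD, n = 4 each). INHA, INHBA, CYP19A1, HSD17B1, AMH, AMHR2 and NR5A1 fell and KITLG did not pass. Among markers of other cells, CSF1R of 11 leukocyte markers fell, HBA and ALAS2 of 4 erythrocyte markers fell, ENG of 9 endothelial markers rose, CYP17A1 fell and TAGLN rose of 7 theca and stromal markers, and of 8 oocyte markers none passed. The mean log2 intensity over the leukocyte markers was 5.45 to 7.17 in VVM-GC and 6.61 to 6.88 in PM-GC, and that over the erythrocyte markers was 6.18 to 7.61 in VVM-GC and 7.65 to 8.14 in PM-GC. The part of other cells in the results below was not tested. Detection calls were not used here, and precision is limited by there being 4 arrays a group.

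Cytosolic ribosomal protein genes had as many calls up as down after hCG, and their share of calls was near that of all genes. With limma fitted over all 14132 genes and calls made at an adjusted p under 0.05, 4 of the 39 genes rose, 4 fell and 31 passed in neither direction. That is 20.5% called, against 23.8% called among all genes, of which 11.3% were higher and 12.5% lower. The median difference was -0.14 over the 39 genes and -0.09 over all genes. In bulk RNA, fewer cells of a type and less RNA per cell cannot be told apart. Both subunits had calls in both directions. Of the 20 large subunit genes 1 rose and 2 fell (median -0.17), of the 12 small subunit genes 1 rose and 2 fell (median -0.12), and of the 6 paralogs and like genes 1 rose and none fell (median 0.21). By the brightest probe set of each gene, only 1 of the 39 differed by 2-fold or more, against 11.1% of all genes. Dimmer probe sets rose by more, by 1.83 and 1.73 for RPL29 and by 1.64 for RPL7L1. The groups did not overlap for 7 of the 39 (17.9%), against 27.2% of all genes.

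**Figure D1:**
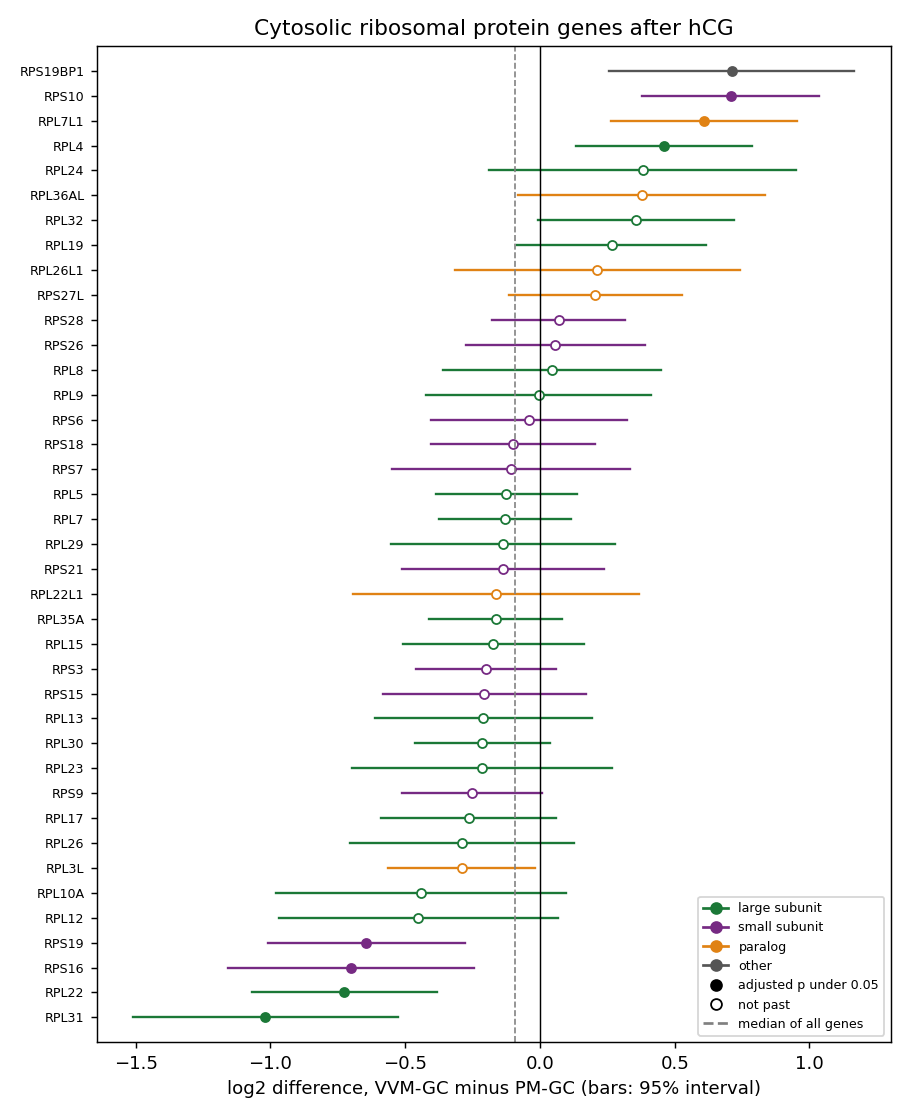
Log2 difference (x axis, VVM-GC minus PM-GC) of each of the 39 genes (y axis) with its 95% interval from limma, 4 arrays per group; filled points have an adjusted p under 0.05 and the dashed line is the median of all genes, -0.09. The 8 called genes lie at both ends, from RPL31 at -1.02 to RPS19BP1 at 0.71.

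RPL31 sits at the rim of the tunnel through which the growing protein leaves the large subunit. It read 6.67, 6.48, 6.76 and 6.39 in VVM-GC, against 7.28, 7.58, 7.25 and 8.27 in PM-GC. All VVM-GC arrays were below all PM-GC arrays, and array 4 of PM-GC was the highest. The difference of -1.02 (SE 0.22, adjusted p = 0.00801) had the largest size among the 39 genes, each taken by its brightest probe set. RPL31 was read by 1 probe set, with group means of 6.58 in VVM-GC and 7.59 in PM-GC. RPL17, RPL26 and RPL19, also found at the tunnel exit, differed by -0.26, -0.29 and 0.27 and did not pass (adjusted p = 0.228, 0.301 and 0.258).

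RPL22 is an RNA-binding protein on the surface of the large subunit, known in the mouse for its part in T cell development. It read 10.77, 10.37, 10.29 and 10.46 in VVM-GC, against 11.49, 11.23, 11.14 and 10.93 in PM-GC. The groups did not overlap, and RPL22 fell by 0.73 (SE 0.15, adjusted p = 0.00725). Its other probe sets differed by -0.29 and 0.18 and did not pass. The paralog RPL22L1, which can take the place of RPL22 in the ribosome, read 12.42, 12.45, 13.19 and 12.92 in VVM-GC, against 13.07, 12.32, 13.03 and 13.22 in PM-GC. Its groups overlapped, and the difference of -0.16 had a 95% interval of -0.69 to 0.37 (adjusted p = 0.661).

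RPS19 belongs to the head of the small subunit and is the gene most often mutated in Diamond-Blackfan anaemia, an inherited failure of red cell production. It read 6.13, 6.20, 6.43 and 6.37 in VVM-GC, against 6.79, 6.56, 7.26 and 7.10 in PM-GC. The groups did not overlap (difference -0.64, SE 0.16, adjusted p = 0.018), and the call was lost without array 4 of PM-GC (adjusted p = 0.0532). RPS16, whose tail reaches the transfer RNA in the decoding centre, read 5.90, 6.47, 6.08 and 6.41 in VVM-GC, against 7.36, 6.56, 6.67 and 7.08 in PM-GC. It fell by 0.70 (SE 0.20, adjusted p = 0.0333), with a narrow gap between the groups. The call rests on 1 of its 5 probe sets: the other 4 read between 3.29 and 4.66 as group means and did not pass, and with the mean of the 5 the difference was -0.01 (adjusted p = 0.935). It was also lost without array 1 or 3 of VVM-GC and without array 1 or 4 of PM-GC (adjusted p = 0.069 to 0.0891). RPL31, RPS19 and RPS16 had low signals, with group means of 6.22 to 7.59 against array medians of 5.44 to 5.54. RPL4, which rose, was at 7.56 in VVM-GC and 7.10 in PM-GC. RPL31 and RPS19 had 1 probe set each, so their falls could not be compared with a second one. The rises of RPS10, RPL4 and RPS19BP1, given below, also rest on 1 probe set each.

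RPS10, another protein of the small subunit's head, read 10.86, 10.54, 10.58 and 10.96 in VVM-GC, against 10.18, 10.15, 10.04 and 9.74 in PM-GC. Every VVM-GC array exceeded every PM-GC array (difference 0.71, SE 0.15, adjusted p = 0.00663). RPS10 is also among the genes mutated in Diamond-Blackfan anaemia. Of the 9 listed genes of that disease 6 were measured, of which RPS10 rose, RPS19 fell and RPL5, RPL35A, RPS7 and RPS26 did not pass.

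RPL4 sends a loop into the exit tunnel of the large subunit. It read 7.66, 7.42, 7.45 and 7.72 in VVM-GC, against 6.94, 7.45, 6.90 and 7.11 in PM-GC. Array 2 of PM-GC lay among the VVM-GC arrays, and RPL4 rose by 0.46 (SE 0.15, adjusted p = 0.0466). This call was close to the threshold: of the 8 fits that leave out 1 array it held only without array 2 of PM-GC (adjusted p = 0.0151), and the others gave 0.0552 to 0.119.

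RPL7L1, related in sequence to RPL7, read 11.08, 10.83, 11.16 and 10.80 in VVM-GC, against 10.59, 10.45, 10.40 and 9.99 in PM-GC. The groups did not overlap (difference 0.61, SE 0.15, adjusted p = 0.0173). RPL7 itself, a protein of the large subunit, differed by -0.13 (95% interval -0.37 to 0.12, adjusted p = 0.439). RPS19BP1 read 10.93, 10.48, 11.03 and 10.46 in VVM-GC, against 10.11, 9.81, 9.67 and 10.46 in PM-GC. It rose by 0.71 (SE 0.20, adjusted p = 0.0306), although array 4 of each group gave nearly the same value, and the call was lost without array 1 or 3 of VVM-GC and without array 1, 2 or 3 of PM-GC (adjusted p = 0.0553 to 0.0806).

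**Figure D2:**
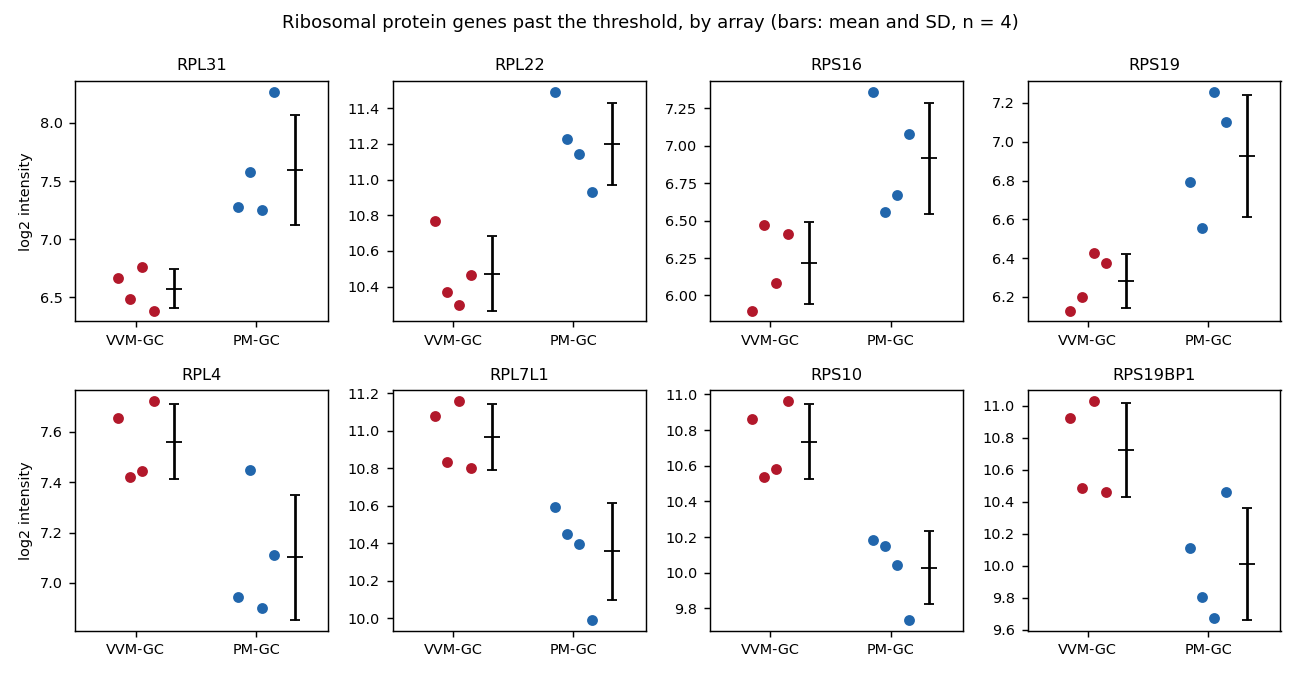
Log2 intensity (y axis, a separate scale in each panel) on the 4 VVM-GC and 4 PM-GC arrays (x axis) for the 8 genes past the threshold, with mean and SD. RPL31, RPL22, RPS16 and RPS19 are lower in VVM-GC without overlap, RPL7L1 and RPS10 are higher without overlap, and RPL4 and RPS19BP1 overlap by 1 PM-GC array.

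No ribosomal protein gene with a mean log2 intensity of 11 or more had a call. A split at a mean log2 intensity of 11 over all 8 arrays, chosen after the values were seen, put 23 of the 39 genes above it. None of these 23 passed, whereas 33.7% of all 725 genes above the same level passed. For 1 of the 23 (RPS9, 4.3%) the groups did not overlap, against 37.1% of those 725 genes. At an unadjusted p under 0.05 none of the 23 passed either. Their differences ran from -0.44 for RPL10A to 0.27 for RPL19. The 95% interval stayed within 2-fold in either direction for all 23, and within 0.5 on the log2 scale for 10 of them. Over all genes, these shares were 76% and 37%, and over the 725 genes above the same level they were 73.2% and 28.1%. Of the 16 members under that level, 4 rose, 4 fell and 8 did not pass, against 23.2% of all genes under it. The called genes RPL22, RPL7L1, RPS10 and RPS19BP1 lay just under it, with group means of 10.01 to 11.20. RPL12 and RPL36AL, with group means of 9.87 to 11.17, lay there too and did not pass. That none of the 23 passed therefore depends on where the split falls. The counts also depend on the array left out and on the probe set. Without array 3 of VVM-GC 2 of the 23 passed (RPL10A and RPL19). With probe sets whose names carry no suffix for shared probes, 3 of the 18 still measured passed (RPL15, RPL26 and RPL29). These 3 were then read by dimmer probe sets, with group means of 8.07 to 10.93, so their signals there lay under the split.

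RPS6, the small subunit protein that S6 kinases phosphorylate when mTOR signalling is active, read 12.88, 12.95, 13.41 and 13.26 in VVM-GC, against 13.32, 12.83, 13.26 and 13.24 in PM-GC. The groups overlapped, and the difference was -0.04 (95% interval -0.40 to 0.32, adjusted p = 0.885). RPS3, at the entry of the messenger RNA channel, read 13.42, 13.60, 13.82 and 13.75 in VVM-GC, against 13.86, 13.84, 13.90 and 13.79 in PM-GC. It differed by -0.20 (95% interval -0.46 to 0.06, adjusted p = 0.251). RPL8, which lies near the peptidyl transferase centre, differed by 0.04 (-0.36 to 0.45) and RPL9, near the site where elongation factors bind, by -0.01 (-0.42 to 0.41). RPS28 and RPS26, at the exit of the messenger RNA channel, differed by 0.07 (-0.18 to 0.32) and 0.06 (-0.28 to 0.39).

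RPL12, at the base of the stalk that recruits elongation factors, read 10.50, 10.58, 11.38 and 10.39 in VVM-GC, against 11.22, 10.74, 11.31 and 11.38 in PM-GC. Its array 3 of VVM-GC stood with the PM-GC arrays, and the difference of -0.45 did not pass (adjusted p = 0.197). RPL10A, which forms the L1 stalk by the exit site of transfer RNA, read 11.46, 11.47, 12.42 and 11.82 in VVM-GC, against 12.33, 11.74, 12.44 and 12.43 in PM-GC (difference -0.44, adjusted p = 0.223). Without array 3 of VVM-GC both passed, RPL12 at -0.67 (adjusted p = 0.0193) and RPL10A at -0.65 (adjusted p = 0.0405). RPL19 then passed too, as higher, at 0.40 (adjusted p = 0.0486).

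RPL5, which binds 5S ribosomal RNA with RPL11 and restrains MDM2 when assembly is disturbed, read 4.75, 4.66, 4.81 and 4.68 in VVM-GC, against 4.78, 4.87, 4.67 and 5.08 in PM-GC. All 8 values lie under the array medians and the groups overlapped, and the difference of -0.13 did not pass (adjusted p = 0.477). RPS27L, a paralog of RPS27 induced by p53 in human cells, read 3.55, 3.10, 2.96 and 3.15 in VVM-GC, against 2.97, 3.07, 3.08 and 2.83 in PM-GC (difference 0.21, adjusted p = 0.337). RPL3L, which replaces RPL3 in muscle, read 4.94, 5.18, 4.97 and 5.03 in VVM-GC, against 5.18, 5.48, 5.16 and 5.46 in PM-GC (difference -0.29, adjusted p = 0.117). The groups overlapped for both, and at signals this low a difference says little about the transcript.

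RPL36AL, a paralog of RPL36A, read 10.24, 9.90, 10.58 and 10.27 in VVM-GC, against 9.96, 9.36, 10.25 and 9.91 in PM-GC (difference 0.38, adjusted p = 0.221). RPL26L1, whose sequence is close to that of RPL26, read 9.25, 9.27, 9.93 and 9.68 in VVM-GC, against 8.96, 8.96, 9.53 and 9.84 in PM-GC (difference 0.21, adjusted p = 0.554). RPL24, which bridges the subunits, differed by 0.38 with an SD of 0.11 in VVM-GC and 0.59 in PM-GC (adjusted p = 0.319), and RPL32 by 0.36 (adjusted p = 0.15). The other members without a call, all of them proteins of the subunits, were RPL13, RPL15, RPL23, RPL29, RPL30, RPL35A, RPS7, RPS9, RPS15, RPS18 and RPS21, with differences from -0.25 for RPS9 to -0.10 for RPS18. Ribosomal protein genes have many processed pseudogenes and some near-identical paralogs, and probes may bind their transcripts, so each value may hold signal from such copies.

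Within each group, the 23 strongly measured genes tended to be high or low on the same arrays. Array 3 of VVM-GC held the highest value of its group for 20 of the 23 genes, and array 1 the lowest for 15. In PM-GC, array 2 was the lowest for 18. The median deviation of the 23 genes from their own group mean was -0.22, -0.18, 0.29 and 0.09 on arrays 1 to 4 of VVM-GC, and 0.09, -0.18, 0.06 and 0.08 on arrays 1 to 4 of PM-GC. The median difference between the groups over the same genes was -0.16. It compares groups of 4 arrays, so deviations of single arrays cannot be set directly against it, and it was not tested. RPL19 ran the other way, with its lowest VVM-GC value on array 3. Over the 702 other genes above the same level, the median deviation on array 3 of VVM-GC was 0.06 and that on array 2 of PM-GC was -0.07.

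The log2 difference between 3' and 5' control probe sets, which widens as RNA or its copies shorten, was compared for ACTB and GAPDH. For ACTB, with its lowest and highest values both in VVM-GC, it was 4.47, 4.83, 5.18 and 4.61 on arrays 1 to 4 of VVM-GC, against 4.70 to 4.80 in PM-GC, with means of 4.77 ± 0.31 and 4.75 ± 0.05 (exact two-sided permutation test, p = 0.914, n = 4 each). For GAPDH it was 2.52, 2.68, 2.75 and 2.64 on arrays 1 to 4 of VVM-GC, against 2.63, 2.79, 2.77 and 2.78 in PM-GC (difference -0.098, exact two-sided permutation test, p = 0.2, n = 4 each). Its lowest value was on array 1 of VVM-GC and its highest on array 2 of PM-GC. Array 3 of VVM-GC had the lowest mean over the leukocyte markers, 5.45. The part of these measures in the shared level was not tested.

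**Figure D3:**
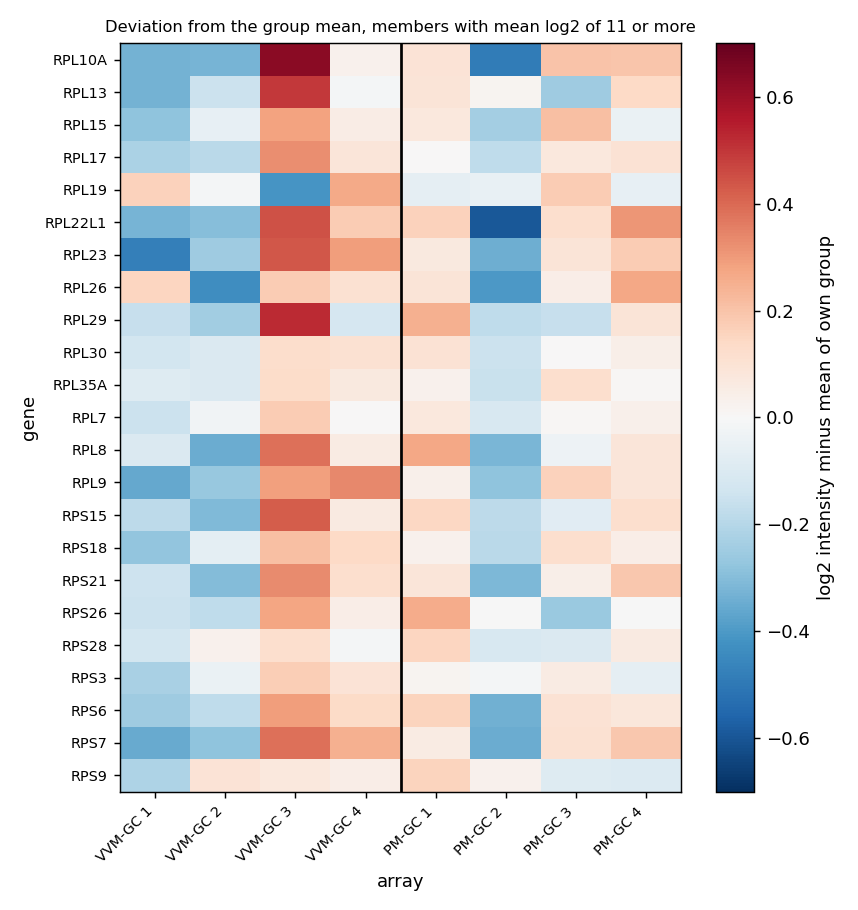
Deviation of log2 intensity from the mean of the array's own group (colour) for the 23 genes with a mean log2 intensity of 11 or more (y axis) on each array (x axis, VVM-GC left of the line, PM-GC right). Array 3 of VVM-GC is above its group mean for every gene but RPL19, and array 2 of PM-GC is below for every gene but RPS9 and RPL13.

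Probe sets of the same gene did not always move alike. Of the 17 genes with several probe sets, the differences spanned under 0.5 for 9 genes and 0.5 or more for 8. Over the 67 probe sets, 7 passed as higher and 5 as lower in the fit over all 52766 probe sets, where 14.1% passed (7.24% higher, 6.85% lower). RPL29 had the widest span, and it and the 3 genes that follow were chosen after their values were seen. The probe set that represents RPL29, of a kind that shares probe sequences with other transcripts, read 11.90, 11.81, 12.58 and 11.94 in VVM-GC, against 12.44, 12.01, 12.03 and 12.28 in PM-GC, a difference of -0.14. A second RPL29 probe set read 10.67, 10.21, 10.24 and 10.81 in VVM-GC, against 8.47, 8.58, 8.90 and 8.64 in PM-GC, with no overlap. It rose by 1.83 (SE 0.16, adjusted p = 7.73e-05 over all probe sets), and the third RPL29 probe set rose by 1.73 (SE 0.19, adjusted p = 0.00023).

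RPL26 was at -0.29 by its brighter probe set, whereas the dimmer one read 8.74, 8.86, 8.48 and 8.32 in VVM-GC, against 8.05, 8.09, 8.19 and 7.94 in PM-GC. The dimmer one rose by 0.53 (SE 0.14, adjusted p = 0.0275 over all probe sets). RPL15 was at -0.17 by its brighter probe set, and the dimmer one read 10.20, 9.87, 9.90 and 10.15 in VVM-GC, against 10.70, 10.64, 11.44 and 10.96 in PM-GC, and fell by 0.90 (SE 0.18, adjusted p = 0.00774 over all probe sets). All 4 probe sets of RPL7L1 had positive differences, of 0.23 to 1.64, and 2 of them passed. With unsuffixed probe sets alone, 33 of the 39 genes remained measured, of which 7 rose and 5 fell (36.4%, against 23.6% of all genes measured in the same way). The number of calls among these genes therefore depends on the choice of probe set.

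**Figure D4:**
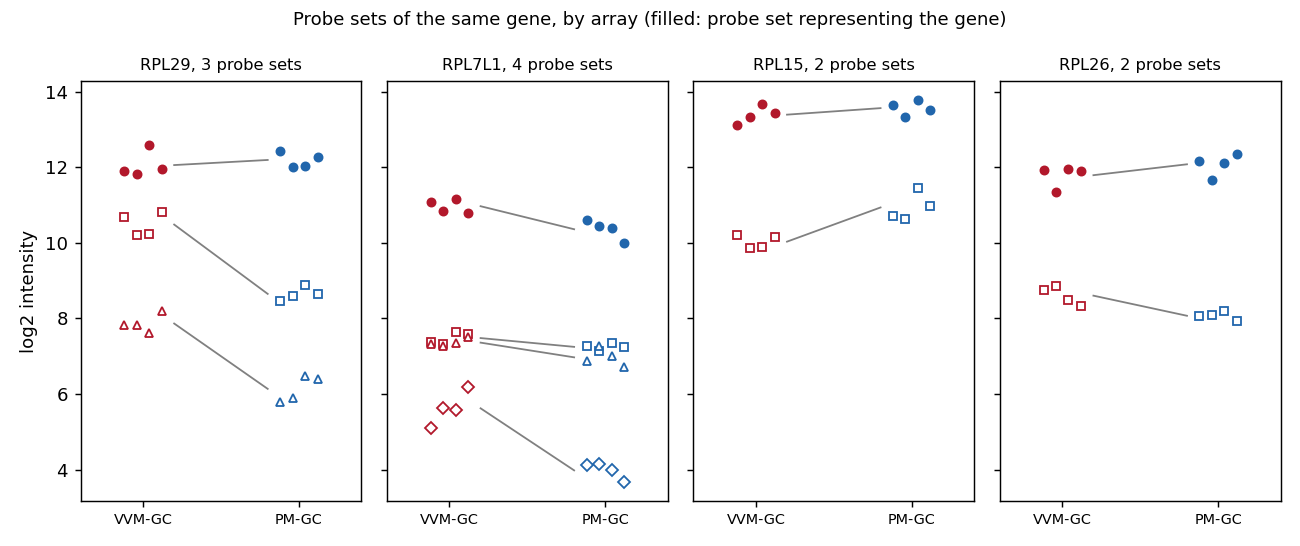
Log2 intensity (y axis) on the VVM-GC and PM-GC arrays (x axis) for each probe set of RPL29, RPL7L1, RPL15 and RPL26; marker shape tells the probe sets apart, filled markers show the probe set that represents the gene, and grey lines join the group means. The 2 dimmer probe sets of RPL29 are higher in VVM-GC by 1.83 and 1.73, and the brightest differs by -0.14.

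Of other ribosome genes outside the symbol rule 4 were measured. RACK1, RPLP1, FAU and RPLP2 differed by -0.35, -0.21, -0.16 and -0.03, and none passed, also not at an unadjusted p under 0.05. Of 10 measured genes whose messenger RNAs also carry a TOP tract, 1 rose and 3 fell (40% called, against 23.8% of all genes). EEF2, the elongation factor that moves the ribosome along, rose by 1.12 (SE 0.19), and NACA, EIF3L and EIF3E fell by 1.21, 0.66 and 0.36. EEF2 and NACA were read by 1 probe set each and at low signals. Means in VVM-GC and PM-GC were 8.01 and 6.89 for EEF2, and 5.73 and 6.94 for NACA, whose groups overlapped.

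Among factors that build ribosomes, 21 of 48 measured biogenesis genes fell, 1 rose and 26 passed in neither direction (43.8% lower, against 12.5% of all genes and 10.3% of the cytosolic ribosomal protein genes), with a median of -0.41. NOP56, a core protein of the particles that methylate ribosomal RNA, was at 8.48 ± 0.39 in VVM-GC and 9.76 ± 0.29 in PM-GC (difference -1.28, SE 0.21, adjusted p = 0.00208). UTP15 and HEATR1, which act in the early processing of ribosomal RNA, fell by 1.26 and 1.13, and MPHOSPH10 rose by 0.47. The 21 biogenesis genes that fell became 16 to 21 when 1 array was left out. They were 16 without array 2 of VVM-GC or array 4 of PM-GC. No biogenesis gene passed as higher without array 1 of VVM-GC or without any 1 of the PM-GC arrays. Of 9 genes of RNA polymerase I and its initiation factors 3 fell (33.3%, against 12.5% of all genes), TAF1A by 0.97, POLR1E by 0.71 and TAF1D by 0.57. Of 62 mitochondrial ribosomal protein genes, which belong to the separate ribosome of mitochondria, 20 fell and 3 rose (32.3% lower, against 12.5% of all genes), with a median of -0.27. The 20 became 12 without array 4 of PM-GC and 13 without array 3 of PM-GC or array 2 or 4 of VVM-GC. They became 23 without array 3 of VVM-GC and 26 after repeated quantile normalization. Of all genes 23.8% were called, 19.1% to 23.7% when 1 array was left out, and 25% after repeated quantile normalization. The differences between these lists were not tested.

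**Figure D5:**
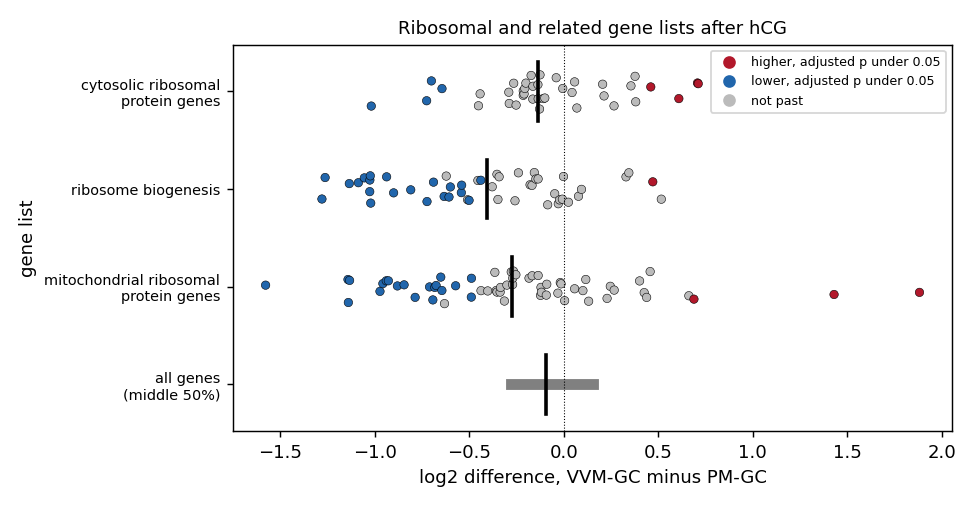
Log2 difference (x axis, VVM-GC minus PM-GC) of each gene in 3 lists (y axis, spread at random within a row), coloured by its call; black bars are list medians, and the grey bar spans the middle 50% of all 14132 genes. The medians are -0.14 for cytosolic ribosomal protein genes, -0.41 for ribosome biogenesis and -0.27 for mitochondrial ribosomal protein genes, against -0.09 for all genes.

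Regulators of ribosome production had calls in both directions, with 3 of 13 higher and 1 lower (30.8% called, against 23.8% of all genes). DDIT4, an inhibitor of mTOR complex 1, rose by 2.04 (SE 0.33, adjusted p = 0.00167), MDM2, the p53 ligase, by 0.82 and RPS6KB1, the kinase of RPS6, by 0.64. RPTOR, a subunit of mTOR complex 1, fell by 0.60 (SE 0.14, adjusted p = 0.011).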

How the data were processed

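The deposited table holds 1 intensity per probe set and array. Per the submitters' processing notes these came from Affymetrix Expression Console and RMA, with no version named. Per the labels' protocols, RNA was amplified linearly before labelling. The values are on a linear scale, so log2 was taken and nothing else was changed. Of 52865 rows, 99 array controls were left out. In the platform annotation 24956 probe sets had a single symbol, 361 had more than 1 and 27449 had none, and 24616 were matched to the gene table of assembly T2T-MMU8v2.0. For a gene with several probe sets, the brightest by mean log2 over 8 arrays was kept. Differences were tested in R 4.3.3 with limma 3.58.1 (lmFit, eBayes), two-sided, with Benjamini-Hochberg adjustment over all genes or probe sets. The 95% intervals are limma's, for single genes. No p was computed over a list. In simulated data with 200 of 14132 genes changed, 18.1%, 66.7% and 95.7% of changes of 0.5, 1 and 2 (log2) were recovered. The simulated noise was independent between genes, and in the real data 23.8% of genes were called. These shares therefore need not hold for the real data. Per-array values were given for members with the 6 largest called changes in each direction, paralogs and 4 fixed genes (RPS6, RPL5, RPL11, RPS19; RPL11 was not measured), and for further members chosen after their values were seen. Members and lists were chosen with earlier results of these data known. Replicates were numbered alike in both groups, but deviations from the group means correlated at 0.01, 0.16, 0.05 and -0.03 for numbers 1 to 4, so the main fit has no block. Alternatives were other scalings, an offset, a filter, other probe set choices, variance models, array weights and leaving out each array.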

Additional observations from a re-analysis of the deposited data

Results flagged for a closer look

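In 6 of the 88 sets of 4 arrays examined, 1 array lay far from the other 3; chance alone gives this in about 1 of 20 such sets. RPL26 read 11.35 on array 2 of VVM-GC, where the other arrays read 11.90 to 11.96. RPL29 read 12.58 on array 3 of VVM-GC, with the others at 11.81 to 11.94. RPS9 read 12.21 on array 1 of VVM-GC, with the others at 12.48 to 12.52. RPL10A read 11.74 on array 2 of PM-GC, with the others at 12.33 to 12.44, and RPS6 read 12.83 on the same array, with the others at 13.24 to 13.32. RPL19 read 11.87 on array 3 of PM-GC, with the others at 11.63 to 11.64.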

How the results depend on the processing

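The calls of RPL31, RPL22, RPS10 and RPL7L1 held in all 17 alternatives and that of RPS19 in 16. Those of RPS16 and RPS19BP1 held in 10 and that of RPL4 in 6. In each alternative the 8 kept their direction. RPL31, RPS10, RPS19, RPL4 and RPS19BP1 had 1 probe set each, so alternatives with other probe set choices could not change their differences. The difference of RPL22 ranged from -0.85 to -0.28, with an adjusted p of up to 0.044. The 4 higher members became 2 after repeated quantile normalization, 2 with the replicate block and 7 with unsuffixed probe sets. They became 2 to 3 when 1 array was left out. The share of all genes called, 23.8%, was 25%, 21.7% and 23.6% in the first 3 of these settings. It was 19.1% to 23.7% when 1 array was left out. The 4 lower members became 2 to 5 when 1 array was left out, with 2 without array 4 of PM-GC. The share of higher genes among all calls, 47.5%, was 40.8% after repeated quantile normalization. Higher calls were the majority with median centring (52.4%) and without array 2 or 4 of VVM-GC (51.0% and 50.9%). The split that gave the 23 strongly measured members, and their count, were added after seeing the data. Of the 23, 2 passed with the mean of all probe sets, 3 with unsuffixed probe sets and 0 to 2 when 1 array was left out. The 3 were read there by dimmer probe sets with signals under the split. The 12 member probe sets past the threshold became 7 to 12 when 1 array was left out, with 7 without array 1 of VVM-GC. The members' median difference was -0.24 to -0.08 when 1 array was left out and -0.17 to -0.09 in the other alternatives. With the replicate block, 5 members passed (2 higher, 3 lower).

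Members without a call turned direction in these cases. With the mean of all probe sets RPL29 was at 1.14 (adjusted p = 0.00012), RPL26 at 0.12 and RPS28 at -0.029. With unsuffixed probe sets RPL29 was at 1.83 (adjusted p = 6.55e-05), RPL26 at 0.53 (adjusted p = 0.0204) and RPL13 at 0.50. After median centring RPL9 was at 0.036 and RPS6 at 0.0012. After repeated quantile normalization RPL8 was at -0.060 and RPS26 at -0.046, and with array weights RPL8 was at -0.027 and RPS26 at -0.00014. When 1 array was left out, the range was -0.12 to 0.11 for RPL9, -0.15 to 0.042 for RPS6, -0.24 to 0.010 for RPS7, -0.085 to 0.16 for RPL8 and -0.035 to 0.14 for RPS26. The ACTB difference between 3' and 5' probe sets ranged from -0.11 to 0.13 between groups. The cause was not tested. RPL29's 2 dimmer probe sets rose in all 12 alternatives run on probe sets, by 1.37 to 1.92. Signals under the array median, as for RPL5, RPL3L and RPS27L, limit what can be seen. So do the low signals of RPL31, RPS16 and RPS19, which lie above that median.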
